A study of Mus musculus with 12 samples.

Results

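The hippocampus and the prefrontal cortex of the same mouse colony were compared on 4 one-colour Agilent arrays, 1 array for each region and genotype. These 4 arrays were chosen by their titles out of 12 arrays covering 6 brain regions. The genotypes were wild type (WT) and IL-18-/- (KO), which lacks interleukin-18, a cytokine made by microglia and other cells, in every tissue. All animals were male F2 littermates of a cross of IL-18-/- with C57BL/6J mice, aged 12 weeks and untreated. Each array held an equal mix of RNA from 5 mice. The labels do not say whether the hippocampus and the prefrontal cortex pools came from the same 5 mice. Tissue was cut from coronal slices 1.5 to 2.5 mm posterior to bregma for hippocampus and 2.5 to 3.5 mm from bregma for prefrontal cortex. The series text places that second slice anterior to bregma, while the sample protocol calls it posterior.

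Both regions belong to the cerebral cortex in the wide sense. The hippocampus is a folded sheet of the older, simpler cortex in which signals pass from granule cells of the dentate gyrus to CA3 and then CA1 pyramidal cells, and it is best known for the storage of episodic and spatial memory. It borders the lateral ventricle, whose wall is lined by ciliated ependymal cells and which holds the choroid plexus, the tissue that secretes cerebrospinal fluid, and it carries myelinated tracts such as the fimbria. The prefrontal cortex is layered neocortex, with upper layers that connect cortical areas and deep layers that project out of the cortex, and it serves planning, working memory and the control of emotion.

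The 75th percentile of the processed intensity lay between 502.3 and 669.2 on the 4 arrays, and 72.95% to 77.67% of the gene spots were well above background. A level below is the log2 signal of a probe relative to that percentile on its own array, given with the WT array first, and a difference is hippocampus minus prefrontal cortex, the mean over both genotypes. Each region lay on a slide of its own with its own scan, so region, slide and scan cannot be told apart. On each slide the WT array had one place and the KO array another, so place and genotype cannot be told apart either. Il18, the targeted gene, read 0.61 on the WT and -3.12 on the KO array of hippocampus, and 0.57 and -3.70 in prefrontal cortex, so both pairs followed their genotype labels. The level of Il18 did not pass the test between regions (difference 0.31, SE 0.18, limma adjusted p = 0.284). That mean includes the KO pair, which lacks the gene: the difference was 0.04 in the WT pair and 0.58 in the KO pair.

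A gene was called when limma gave an adjusted p under 0.05 and the levels lay at least 2-fold apart. Of 24984 genes and transcripts tested, 1110 were called higher in hippocampus (4.44%) and 692 lower (2.77%), 7.21% together. Among the 14182 with a gene symbol, 616 were higher (4.34%) and 447 lower (3.15%), 7.5% together. Hippocampus was therefore the higher region in 61.6% of the calls, but this share depends on how the arrays are scaled. It was 44.2% when arrays were centred on their median, 50.77% after quantile normalization and 47.4% with normexp, another background correction. The median difference over all genes tested was 0.09, against -0.11, 0.02 and 0.00 under those scalings, and small differences below are read against it. Normexp here added an offset of 50 to every signal, which by itself narrows differences that involve dim readings. A smaller difference with normexp at a dim gene is therefore partly set by that choice. The p-values rest on how far the region difference disagreed between the 2 genotypes, with 1 residual degree of freedom per gene. Limma moderates this with a spread pooled over all genes, which counts as 2.267 degrees of freedom. An SE near 0.10 therefore comes mostly from the pooled spread, not from the gene itself. The spread between single mice was not measured. Counts of called members in the lists below are read beside the shares called among named genes.

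All 1802 calls had the same direction in both genotypes, which the choice of called genes favours. Across genes, the typical distance between regions was larger than that between genotypes. The median absolute difference was 0.27 between the WT arrays and 0.32 between the KO arrays of the 2 regions, whereas it was 0.14 between KO and WT in hippocampus and 0.19 in prefrontal cortex. Of 23169 genes well above background on all 4 arrays, 1728 lay at least 2-fold apart between the regions in WT (7.46%), with 4.19% higher in hippocampus and 3.27% lower. In KO there were 2043 (8.82%), with 5.66% higher and 3.16% lower. Between KO and WT, 338 lay that far apart in hippocampus (1.46%), with 0.57% higher and 0.889% lower in KO. In prefrontal cortex 966 did so (4.17%), with 0.811% higher and 3.36% lower in KO. These counts set 1 array against 1 and have no test.

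**Figure D1:**
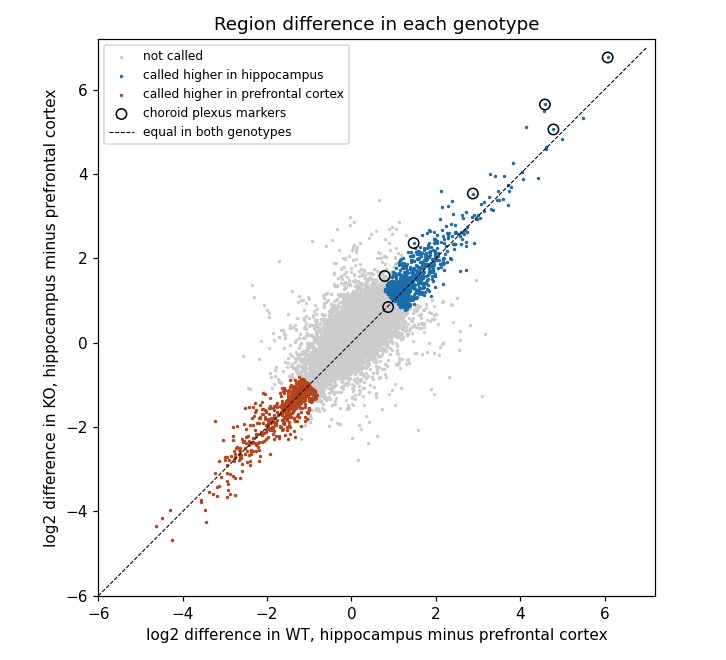
Each point is 1 of the 23169 genes above background on all 4 arrays, with the log2 difference between hippocampus and prefrontal cortex in WT on the x axis and in KO on the y axis; blue and orange points were called higher in hippocampus or in prefrontal cortex, grey points were not called, circles are choroid plexus markers and the dashed line is equality. The called genes lie along the line on both sides, and Clic6 at the upper right differed by 6.07 in WT and 6.76 in KO.

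Markers of the hippocampal cell fields were present on both hippocampus arrays, and the largest differences among them passed 10-fold. In the dentate gyrus list, 3 of 9 tested members were called, all higher in hippocampus, and the median of the list was 0.57. C1ql2, a C1q-like protein that granule cells release at mossy fibre synapses, stood at 0.99 and 1.29 in hippocampus and at -2.84 and -2.97 in prefrontal cortex. That is 16.5-fold (difference 4.04, SE 0.15, limma adjusted p = 0.0194). For C1ql2 the 2 arrays of a region lay within 0.30 of each other and far from the other region. Prox1, the homeobox factor that keeps granule cells what they are, read -2.19 and -2.09 against -4.42 and -4.38 (difference 2.26, SE 0.10, limma adjusted p = 0.0194), which normexp reduced to 0.99. Calb1, the calcium buffer calbindin, which granule cells share with upper cortical neurons, read 3.16 and 3.22 in hippocampus against 3.98 and 3.93, under the 2-fold limit. C1ql3, a close relative of C1ql2, differed by -0.77 and was not called. The summed signal of the dentate list was 24.4 and 23.4 times the 75th percentile in hippocampus against 28.7 and 26.8 in prefrontal cortex. Calb1 and C1ql3, neither of them called, gave most of this sum in both regions.

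CA1 markers were led by Spink8, a secreted inhibitor of serine proteases. It read 2.79 and 2.90 in hippocampus and -1.82 and -1.75 in prefrontal cortex, 24.7-fold higher (difference 4.63, SE 0.10, limma adjusted p = 0.0194). Fibcd1, a receptor for acetylated sugars, followed at -0.43 and -0.13 against -3.68 and -3.57, 10.2-fold. These were the 2 of 9 tested CA1 markers called higher, with a list median of 0.52. Other genes used to mark CA1 differed by less: Wfs1, an endoplasmic reticulum protein, by 0.52 and Pou3f1, a POU-domain transcription factor with the high levels of 5.85 and 6.05 in hippocampus, by 0.80. Ccn3, a matricellular protein, was lower at -1.15 and -1.01 against 0.37 and 0.34 (difference -1.44, SE 0.11, limma adjusted p = 0.0232). A fit on 10 arrays of 5 regions, without amygdala, allows 1 array at a time to be left out. Without hippocampus WT, hippocampus KO, prefrontal cortex WT or prefrontal cortex KO the difference of Ccn3 was -1.5, -1.37, -1.27 or -1.61, and its call was lost each time.

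CA2, the small field between CA3 and CA1, had 4 of 7 tested markers called higher in hippocampus. All 7 differences were positive, and the median was 1.22. Amigo2, an adhesion molecule, read 0.07 and -0.14 in hippocampus and -2.50 and -2.66 in prefrontal cortex (difference 2.54, SE 0.10, limma adjusted p = 0.0194). Rgs14, a signalling scaffold that limits plasticity in CA2 synapses, read 3.61 and 3.60 against 2.48 and 2.29, 2.32-fold. Cacng5, an auxiliary subunit of AMPA receptors, was 3.11-fold higher. Ntf3, the neurotrophin NT-3, showed the widest gap at -1.22 and -1.26 against -4.22 and -4.28, 8.06-fold. Its call was lost in fits on 10 arrays without hippocampus WT (2.62), hippocampus KO (3.40) or prefrontal cortex KO (2.61). Among 11 CA3 markers, 2 were called higher and 1 lower, with a median of 0.63. St18, a zinc finger factor, was 7.98-fold higher at -0.12 and -0.22 against -3.17 and -3.16. Nnat, an imprinted membrane protein, was 3.03-fold higher. Coch, an extracellular protein named for the cochlea, went the other way at -2.19 and -2.57 against -0.03 and 0.11 (difference -2.42, SE 0.18, limma adjusted p = 0.023). Grik4, a kainate receptor subunit enriched in CA3, differed by 0.63 and was not called.

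Of 6 genes used across the whole hippocampus, 2 were called higher and 1 lower, with a median of 0.08 that median scaling turned to -0.12. Zbtb20, a transcriptional repressor needed for hippocampal development, was 6.19-fold higher at 3.11 and 2.93 against 0.47 and 0.31 (difference 2.63, SE 0.10, limma adjusted p = 0.0194). Tyro3, a receptor tyrosine kinase, was lower by 1.92 at its brightest probe, while another of its 3 probes gave -0.32. Lhx2 and Emx2, homeobox factors that pattern the dorsal telencephalon, differed by -0.40 and 0.24, and neither was called.

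**Figure D2:**
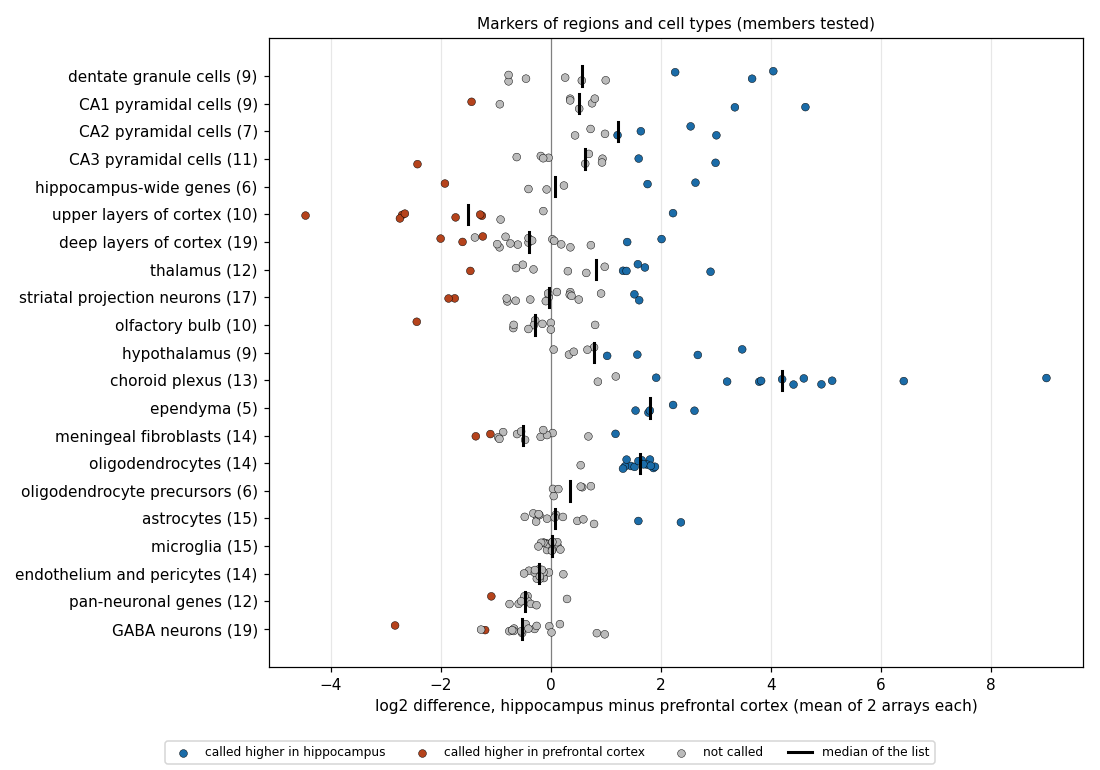
Each row is a marker list with the number of tested members in brackets, each point the log2 difference of 1 gene between hippocampus and prefrontal cortex, and the black bar the median of the list; blue points were called higher in hippocampus, orange points higher in prefrontal cortex and grey points were not called. Choroid plexus markers reach farthest to the right (median 4.21), upper layer markers lie farthest to the left (median -1.5), and the microglia markers sit in a narrow band around 0.02.

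In the opposite direction, upper layer markers of neocortex were mostly higher in prefrontal cortex. Of 10 tested, 7 were called higher there and 1 higher in hippocampus, and the list median was -1.5. Normexp called 5 lower, with a median of -0.997. Dkkl1, a secreted protein related to the Dickkopf family of Wnt inhibitors, read -1.31 and -1.72 in hippocampus and 2.93 and 2.95 in prefrontal cortex, 21.9-fold apart (difference -4.46, SE 0.15, limma adjusted p = 0.0194). Lamp5, a membrane protein of upper layer and neurogliaform neurons, read 1.60 and 1.52 against 4.20 and 4.41, 6.68-fold. Cux2, a homeobox factor of layers above the fifth, was 6.49-fold higher in prefrontal cortex at 1.24 and 0.84 against -1.52 and -1.80. Rspo1, an R-spondin that strengthens Wnt signals, was 6.28-fold higher there. In none of these 4 did the regions overlap, which their choice by size fixes. Rorb, a nuclear receptor of the input layer, differed by -1.25 and fell short of 2-fold with normexp (-0.75). The exception was Scnn1a, an epithelial sodium channel subunit used to mark layer 4, at -0.49 and -0.33 in hippocampus and -2.76 and -2.51 in prefrontal cortex, 4.67-fold higher in hippocampus.

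Of 19 deep layer markers, 3 were called higher in prefrontal cortex and 2 higher in hippocampus, with a median of -0.40. Median scaling called 7 higher in prefrontal cortex and 2 higher in hippocampus, and each fit on 10 arrays that left out 1 array called 2 to 4 and 1. Deptor, an inhibitor of the growth kinase mTOR, was 4.0-fold higher in prefrontal cortex at 0.60 and 1.09 against -1.18 and -1.13. Tbr1, a T-box factor of corticothalamic neurons, read -1.29 and -1.33 in hippocampus and 0.15 and 0.44 in prefrontal cortex (difference -1.60, SE 0.14, limma adjusted p = 0.0251). Its call was lost in fits on 10 arrays without hippocampus WT (-1.94), hippocampus KO (-1.27), prefrontal cortex WT (-1.47) or prefrontal cortex KO (-1.73). Fezf2, the selector of neurons that project below the cortex, differed by -0.93, under the 2-fold limit. Bcl11b (Ctip2), which the hippocampal pyramidal and granule cells also express, was higher in hippocampus at 3.01 and 3.09 against 1.64 and 1.68, 2.62-fold.

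The promoters of C1ql2 and Dkkl1, the leading genes of the dentate and the upper layer list, are printed so that the sequence around the start of each can be read beside its opposite regional level. The windows run from 250 bases before to 50 after the start, from RefSeq on GRCm38.p6: chr1:120340332-120340631, plus strand, for C1ql2 and chr7:45211834-45212133, minus strand, for Dkkl1. Capitals mark the E-box CANNTG, the letters bound by neuronal basic helix-loop-helix factors such as NeuroD.
C1ql2: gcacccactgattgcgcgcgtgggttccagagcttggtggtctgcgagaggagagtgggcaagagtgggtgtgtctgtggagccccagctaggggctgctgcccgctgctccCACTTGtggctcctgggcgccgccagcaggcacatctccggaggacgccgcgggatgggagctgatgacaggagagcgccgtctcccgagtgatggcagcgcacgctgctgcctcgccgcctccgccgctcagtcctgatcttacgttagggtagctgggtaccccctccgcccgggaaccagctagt
Dkkl1: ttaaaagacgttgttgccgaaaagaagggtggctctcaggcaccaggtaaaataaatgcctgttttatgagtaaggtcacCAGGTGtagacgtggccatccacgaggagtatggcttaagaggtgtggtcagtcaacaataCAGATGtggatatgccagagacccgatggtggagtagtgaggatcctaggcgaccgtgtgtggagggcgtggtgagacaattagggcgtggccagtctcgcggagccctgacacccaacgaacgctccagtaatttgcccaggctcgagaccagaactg
The C1ql2 window holds 1 E-box and the Dkkl1 window 2. An E-box on either strand was found in 72.3% of all RefSeq windows of this length, in 66.8% of those of the genes tested, in 71.4% of those of genes called higher in hippocampus and in 68.7% of those called lower. The GC box GGGCGG stood in 55.2% of the windows of tested genes, in 44.5% of the higher and 50.8% of the lower group. The TATA box TATAAA stood in 9.94%, 13.6% and 12.1%. The cAMP response element TGACGTCA was rare throughout, at 2.55%, 0.87% and 1.73%. A window was listed for 462 of the 616 named genes called higher and 321 of the 447 called lower, a gene can have several, and a match of letters is not a binding site.

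The 12 largest called differences toward hippocampus among named genes above background on all 4 arrays began with Clic6. Clic6, a chloride channel family protein, read 1.71 and 2.46 in hippocampus and -4.36 and -4.30 in prefrontal cortex, 85.4-fold (difference 6.42, SE 0.21, limma adjusted p = 0.0194), though its other probe gave only 2.99. Sostdc1, a secreted antagonist of BMP and Wnt signals, was 34.7-fold higher, Kcne2, an accessory subunit of potassium channels, 32.8-fold, Kl, the FGF23 co-receptor Klotho, 30.3-fold, and Krt18, a keratin of simple epithelia, 24.7-fold. In these 5 genes the KO hippocampus array stood above the WT hippocampus array, by 0.60 to 1.02. Clic6, Sostdc1 and Kl are also on the list of choroid plexus markers given below. Lefty1, an inhibitor of the growth factor Nodal, read 1.41 and 1.66 against -2.64 and -2.39, 16.6-fold. Thbs4, a thrombospondin of the extracellular matrix, was 17.9-fold higher at its brightest probe. Rasd1, a small G protein induced by glucocorticoids, read 1.52 and 1.80 against -2.10 and -2.15, 13.8-fold. Il20rb, a receptor chain for interleukin-20 family cytokines, read 0.69 and 0.41 against -3.09 and -3.29, 13.4-fold.

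The 12 largest in the prefrontal direction began with Tcap. Tcap, the sarcomere protein telethonin, read -2.10 and -2.62 in hippocampus and 2.53 and 1.72 in prefrontal cortex, 22.4-fold higher in prefrontal cortex (difference -4.49, SE 0.13, limma adjusted p = 0.0194). Myl4, a myosin light chain, read -0.94 and -1.10 against 2.43 and 2.43, 11-fold. Tnnc1, troponin C of slow muscle, was 8.96-fold and Krt12, a keratin of the cornea, 9.85-fold higher in prefrontal cortex. Rasgef1c, an exchange factor for small G proteins, was close to the floor in hippocampus at -4.20 and -3.80 and read 0.29 and 0.36 in prefrontal cortex, 20.1-fold. Cobl, which nucleates actin filaments in dendrites, was 12.8-fold and Igfbp6, a binding protein for insulin-like growth factor 2, 9.25-fold higher in prefrontal cortex. Sowahb, an ankyrin repeat protein, and Tmem40, a membrane protein, were 10.6-fold and 9.62-fold higher there. The regions do not overlap for these 24 genes, which their choice by size fixes, and all 24 kept their call under every alternative other than the one with no filter on dim probes.

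**Figure D3:**
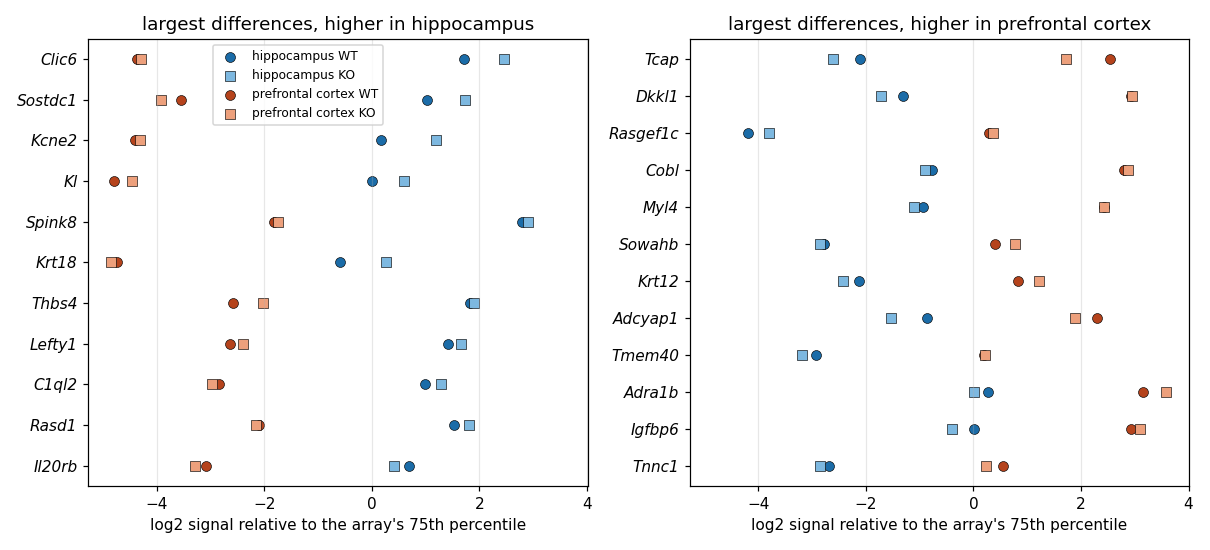
Levels of genes with the largest differences in each direction, as log2 signal relative to the array's 75th percentile; blue symbols are hippocampus, orange symbols prefrontal cortex, circles WT and squares KO, 1 array each. The regions are separated by 3 to 6 log2 units, and the WT and KO symbols of a region lie close together, with the widest spread in the hippocampus values of Kcne2, 0.17 and 1.18.

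Where a gene was not well above background on either array of a region, only a lower bound can be given. It sets the mean of the bright region against, for each dim array, the higher of the probe's own reading and the lowest signal that was well above background there. On this basis Ttr (transthyretin, a carrier of thyroid hormone) was at least 200.1-fold higher in hippocampus, at 2.02 and 3.07. Ttr too is on the list of choroid plexus markers. Calml4, a calmodulin-like protein, was at least 29.8-fold and Capsl, a calcium-binding protein, at least 15.9-fold higher. Krt15 was at least 9.68-fold and Cabp7, a calcium sensor of neurons, at least 9.19-fold higher. In prefrontal cortex, Aldh1a3, which makes retinoic acid, was at least 5.44-fold higher at -2.62 and -2.35, and Cyp4b1, a cytochrome P450, at least 4.56-fold. Ocm, the calcium buffer oncomodulin, was at least 3.51-fold and Stat4, a mediator of interleukin-12 signals, at least 3.24-fold higher there, both under the 2-fold limit with normexp (-0.95 and -0.87). The call of Stat4 was also lost without hippocampus WT in the fit on 10 arrays (-2.59). In all, 231 genes and transcripts called higher had no prefrontal array above background, and 62 called lower had no hippocampus array above it.

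Most choroid plexus markers and all tested ependyma markers were higher in hippocampus. Of 13 choroid plexus markers tested, 11 were called higher, and the median was 4.21. Ttr, Clic6, Sostdc1 and Kl, given above by size of difference, are among those called. Normexp called 9 higher, with a median of 2.30. Enpp2, an enzyme that makes lysophosphatidic acid, and Prlr, the prolactin receptor, differed by 1.18 and 0.86 and were not called. Folr1, a folate receptor of the plexus epithelium, read 0.98 and 1.65 against -1.90 and -1.89, with a difference of 0.24 at its other probe. Otx2, the homeobox factor of that epithelium, was not well above background in prefrontal cortex and at least 6.78-fold higher in hippocampus at -2.59 and -2.09. Aqp1, its water channel, read -1.03 and -0.20 against -4.24 and -5.41 (difference 4.21, SE 0.56, limma adjusted p = 0.0391), and only 1 of the 2 prefrontal arrays was above background. Fits on 10 arrays without hippocampus WT (4.50), hippocampus KO (3.91), prefrontal cortex WT (5.16) or prefrontal cortex KO (3.25) lost the call of Aqp1. The KO hippocampus array stood above the WT one for 12 of the 13 markers, all but Prlr, with a median of 0.70, beside 0.01 over all genes tested. The summed signal was 43.5 in WT and 70.5 in KO hippocampus and 17.7 and 16.0 in prefrontal cortex. Enpp2, which was not called, gave most of this sum in both regions and nearly all of it in prefrontal cortex. The sums therefore say little about the markers that were called. Fewer cells of a type and less RNA per cell cannot be told apart in bulk tissue. The part of choroid plexus tissue in the other differences between these regions was not tested.

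All 5 tested ependyma markers were called higher, with a median of 1.80. Foxj1, the master regulator of motile cilia, read 0.78 and 1.00 in hippocampus and -1.67 and -1.78 in prefrontal cortex, 6.12-fold (difference 2.61, SE 0.14, limma adjusted p = 0.0204). Rarres2, the secreted protein chemerin, was 3.49-fold and Dynlrb2, a dynein light chain of cilia, 3.42-fold higher. Dynlrb2 lost its call in the fit on all 12 arrays (limma adjusted p = 0.0747), while the fit on 10 arrays without amygdala called all 5 markers. Their summed signal was 8.27 and 9.99 in hippocampus against 2.32 and 2.30.

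Myelin genes were higher in hippocampus. Of 14 oligodendrocyte markers, 13 were called, with differences between 1.31 and 1.90 and a median of 1.62. Mal, a myelin proteolipid, read 2.23 and 2.69 against 0.34 and 0.79, 3.72-fold (difference 1.90, SE 0.10, limma adjusted p = 0.0204), and Mobp, a basic protein of compact myelin, was 3.65-fold higher. Cnp, a phosphodiesterase of myelin, was 2.60-fold higher and Mag, the adhesion molecule of the inner myelin layer, 2.55-fold. Mbp, myelin basic protein, read 7.10 and 7.16 against 5.67 and 5.67, and of its 3 probes the lowest gave -0.23 and the highest 1.84. Their summed signal was 272.7 and 294.6 in hippocampus and 98.8 and 101.4 in prefrontal cortex. For precursor cells of the lineage, limma called 0 of 6 markers, 3 had an unadjusted p under 0.05, and the median was 0.34. Pdgfra and Cspg4, which define precursors, differed by 0.05 and 0.04, and the difference between the 2 lists was not tested.

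**Figure D4:**
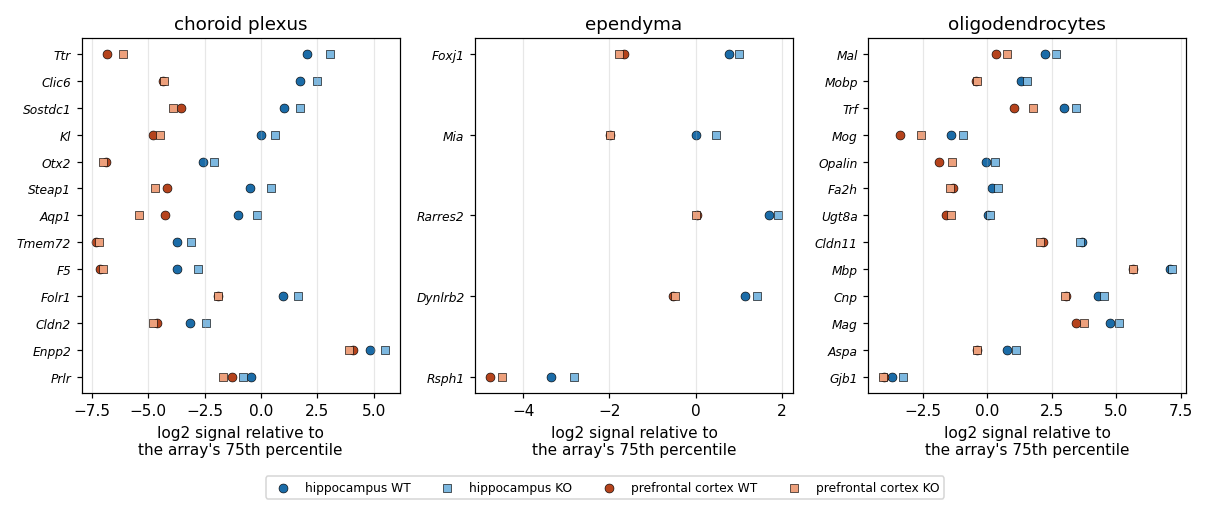
Levels of tested choroid plexus, ependyma and oligodendrocyte markers on the 4 arrays, as log2 signal relative to the array's 75th percentile, with blue for hippocampus, orange for prefrontal cortex, circles for WT and squares for KO. The choroid plexus genes are the widest apart and show the KO hippocampus symbol to the right of the WT one in 12 of 13 rows, while the oligodendrocyte genes keep a nearly constant gap.

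Markers of microglia, astrocytes, vessels, blood and meninges are read beside the 7.5% of named genes called in either direction. Limma called 0 of 15 microglia markers, 0 had an unadjusted p under 0.05, and their differences ran from -0.22 to 0.18 with a median of 0.02. Tmem119, which separates microglia from blood macrophages, read 0.84 and 1.03 against 1.03 and 1.11. In astrocytes 2 of 15 markers were called, with a median of 0.07 that median scaling turned to -0.13. Agt, the precursor of angiotensin, was 5.16-fold higher in hippocampus at 2.04 and 1.80 against -0.36 and -0.53 (difference 2.37, SE 0.10, limma adjusted p = 0.0194). Gfap, the filament protein of hippocampal and white matter astrocytes, was 3.02-fold higher at -2.43 and -2.01 against -3.74 and -3.89, and fell short of 2-fold (0.76) with normexp. Aldh1l1, a folate enzyme of all astrocytes, differed by -0.47 and Slc1a3, the glutamate transporter GLAST, by 0.09. The list of endothelium and pericytes had 0 of 14 called by limma, 2 with an unadjusted p under 0.05, and a median of -0.21. Of 3 red blood cell genes limma called 0, 1 had an unadjusted p under 0.05, and the median was -0.27. Meningeal fibroblast markers had 2 called lower and 1 higher among 14, with a median of -0.50. Median scaling called 5 lower and 0 higher, and the fits on 10 arrays without hippocampus WT or hippocampus KO called 0 in either direction. Slc22a6, an organic anion transporter of the meninges, was 2.57-fold higher in prefrontal cortex, and Lum, the proteoglycan lumican, 2.26-fold higher in hippocampus. Both calls were lost when arrays were left out of the fit on 10 arrays. For Slc22a6 these were hippocampus WT (-1.38), hippocampus KO (-1.35) and prefrontal cortex KO (-1.15). For Lum they were hippocampus WT (1.16), hippocampus KO (1.20) and prefrontal cortex WT (0.99), and its difference was 0.97 with median scaling and 0.92 with normexp.

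Markers of regions next to each slice also differed, and their part in the results was not tested. The thalamus lies under the hippocampus, and 5 of its 12 tested markers were called higher in hippocampus and 1 lower, with a median of 0.81. Prkcd, a protein kinase C of thalamic relay neurons, read 1.01 and 1.21 against -1.69 and -1.90, 7.49-fold (difference 2.90, SE 0.15, limma adjusted p = 0.0204). Tcf7l2, a Wnt effector of thalamic neurons, was 3.28-fold and Zic1, a zinc finger factor, 3.0-fold higher, whereas Cacna1g, a T-type calcium channel, was 2.75-fold higher in prefrontal cortex. The summed thalamus signal was 24.4 and 21.3 in hippocampus and 15.8 and 14.7 in prefrontal cortex. It ran from 10.53 to 41.03 on the other 8 arrays, highest in olfactory bulb, and the series has no thalamus array. Of 9 hypothalamus markers 4 were called higher in hippocampus, with a median of 0.79. The fit on all 12 arrays called 1, normexp 2, and the fit on 10 arrays without hippocampus KO 2. Hdc, which makes histamine, read -0.81 and -0.83 against -4.52 and -4.08, 11.2-fold, and Pmch, melanin-concentrating hormone, -1.67 and -1.09 against -3.80 and -4.30, 6.38-fold. In the fit on all 12 arrays Pmch lost its call, as did Avp (vasopressin) and Hcrt (orexin), with limma adjusted p = 0.342, 0.380 and 0.696. That fit takes in the 2 amygdala arrays, whose summed hypothalamus signal was 212.6 in WT and 15.3 in KO. The fit on 10 arrays without amygdala called 4 of the 9 markers. The part of the amygdala arrays in the lost calls was not tested. The summed hypothalamus signal was 3.56 and 5.36 in hippocampus and 2.28 and 2.15 in prefrontal cortex, beside 183.6 and 216.9 on the hypothalamus arrays.

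Among 17 striatal markers, 2 were higher and 2 lower in hippocampus, with a median of -0.03 that quantile normalization turned to 0.05. Normexp called 0 higher and 2 lower. Ppp1r1b, the dopamine-regulated phosphatase inhibitor DARPP-32, differed by -0.09. Isl1, a homeobox factor, was 3.05-fold higher in hippocampus at the low levels of -3.35 and -3.18, a call lost in the fit on all 12 arrays (limma adjusted p = 0.155) and with normexp (0.45). Of 10 olfactory bulb markers 1 was called, beside 7.5% of named genes, and the list median was -0.29. The called marker was Meis2, a homeobox factor also found in cortex, at 2.13 and 2.02 against 4.68 and 4.34, 5.41-fold higher in prefrontal cortex. Meis2 gave most of the summed olfactory signal in both regions. That sum was 6.52 and 6.58 in hippocampus and 28.7 and 22.8 in prefrontal cortex, beside 176.9 and 174.8 in the olfactory bulb. Cdhr1, a protocadherin of mitral cells, read -1.37 on the WT and -2.46 on the KO array of prefrontal cortex, and Doc2g, of the same cells, -0.86 and -2.31, so the 2 prefrontal arrays stood apart for both genes.

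Of 12 genes shared by all neurons, 11 had a negative difference, 1 was called, and the median was -0.46. Among all 14182 named genes tested, 6619 had a negative difference and 7.5% were called. The called neuronal gene was Tubb3, a neuronal tubulin, at 3.89 and 3.74 against 4.88 and 4.91 (difference -1.08, SE 0.11, limma adjusted p = 0.0301). It fell under 2-fold after quantile normalization (-0.93). Snap25, a protein of vesicle fusion, differed by -0.75, and Nefl, a neurofilament, by 0.30. Inhibitory neuron markers had the median -0.52 over 19, and 2 were called lower in hippocampus. Vip, a peptide of interneurons that inhibit other interneurons, read -0.64 and -0.95 in hippocampus and 1.97 and 2.10 in prefrontal cortex, 7.10-fold (difference -2.83, SE 0.16, limma adjusted p = 0.0211). Npy, neuropeptide Y, read 1.60 and 1.44 against 2.70 and 2.72, 2.28-fold. Sst (somatostatin), Pvalb (parvalbumin) and Gad1, the GABA-synthesising enzyme, differed by -0.69, -0.75 and -0.29 and were not called. Calb2 (calretinin), Nos1, which makes nitric oxide, and Gad2, the other GABA-synthesising enzyme, differed by 0.98, 0.84 and 0.17 and were not called either. Without hippocampus WT the fit on 10 arrays called 4 of the 19 lower. Among 10 genes of glutamate neurons, 2 were called higher and 1 lower, with a median of 0.10 that median scaling turned to -0.10. The fits on 10 arrays that left out 1 array called 0 of them. Slc17a7, the vesicular glutamate transporter of cortical neurons, differed by -0.44, and Camk2a, the kinase abundant in their synapses, by 0.22. Neurod6, a helix-loop-helix factor of excitatory neurons, was 2.57-fold higher in hippocampus at 2.53 and 2.60 against 1.15 and 1.26. Its call was lost in the fits on 10 and 12 arrays (adjusted p = 0.0929 and 0.0933 by limma) and in those leaving out hippocampus WT (1.41), hippocampus KO (1.31), prefrontal cortex WT (1.29) or prefrontal cortex KO (1.44).

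In the receptor families most members were not called and a few lay far apart. Of all named genes 7.5% were called in either direction. Of 13 AMPA, kainate and metabotropic glutamate receptor genes, 1 was higher and 2 were lower in hippocampus, with a median of -0.11. Gria1, the AMPA receptor subunit that is added during long-term potentiation, was higher in hippocampus at 6.59 and 6.51 against 5.56 and 5.34, 2.15-fold. It fell under 2-fold with median scaling (0.90). Gria4, a subunit of fast interneuron synapses, was 2.61-fold higher in prefrontal cortex, and Gria2, which sets calcium permeability, differed by 0.24. Grm8, a presynaptic metabotropic receptor, read -3.02 and -2.85 in hippocampus and -0.37 and -0.28 in prefrontal cortex, 6.10-fold (difference -2.61, SE 0.10, limma adjusted p = 0.0194). NMDA receptor subunits had 0 of 6 called by limma, 2 with an unadjusted p under 0.05, and a median of 0.00 that other scalings put between -0.21 and -0.05. Grin2a, the subunit that matures with age, was the farthest at 0.72.

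GABA-A receptor subunits had 1 of 15 called higher and 2 lower in hippocampus, with a median of 0.29, which other scalings moved between -0.02 and 0.08. Gabra5, the alpha subunit of extrasynaptic receptors known from hippocampus, read 1.95 and 1.90 against 0.11 and 0.22, 3.39-fold. With the mean of its 2 probes the difference was 1.53 and missed the threshold (limma adjusted p = 0.0577). Gabra3 read -0.60 and -0.86 in hippocampus and 1.90 and 1.50 in prefrontal cortex, 5.40-fold (difference -2.43, SE 0.11, limma adjusted p = 0.0194). Gabrd, the delta subunit that answers to neurosteroids, was 2.51-fold higher in prefrontal cortex.

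Serotonin receptors had 1 call among 11, beside 7.5% of named genes called, and a median of 0.30. Median scaling, quantile normalization and normexp each called 1 more, lower in hippocampus. So did the fits on 10 and on 12 arrays and the mean of all probes, whereas the fit without the genotype term did not. Htr5b, a receptor that is not functional in humans, read -0.80 and -1.06 in hippocampus and -3.95 and -4.39 in prefrontal cortex, 9.43-fold higher (difference 3.24, SE 0.11, limma adjusted p = 0.0194). Htr1a, the inhibitory receptor of pyramidal cells, differed by 0.53. Htr2a, the target of classic hallucinogens in cortex, differed by -0.36 at -3.47 and -3.69 against -3.46 and -2.97. Htr3a, a ligand-gated channel of interneurons, differed by -1.26 and was not called. In the dopamine, noradrenaline and acetylcholine family, 19 of 22 were not called, and the median of 0.10 turned to -0.10, -0.07 and -0.02 with median scaling, quantile normalization and normexp. Adra1b, an alpha-1 adrenergic receptor, read 0.27 and 0.01 in hippocampus and 3.15 and 3.59 in prefrontal cortex, 9.40-fold, though its other probe gave -0.75. Drd5, a dopamine receptor of the D1 class, was 4.04-fold higher in hippocampus at its brightest probe and differed by 0.30 at the other. Drd2 was 2.87-fold higher in hippocampus at -2.53 and -2.13 against -3.85 and -3.85, and under 2-fold with normexp (0.70). Drd1 differed by -0.37 and Chrm1, the main muscarinic receptor of forebrain, by 0.06.

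**Figure D5:**
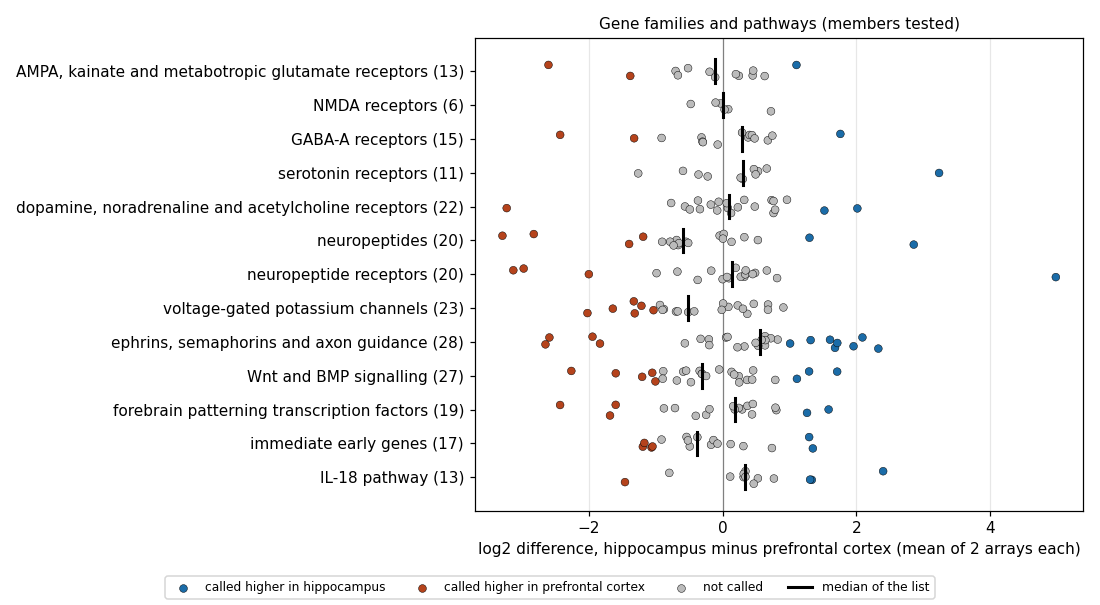
Log2 differences between hippocampus and prefrontal cortex for each tested member of 13 gene families, with the number of members in brackets, blue for genes called higher in hippocampus, orange for those called higher in prefrontal cortex, grey for those not called, and a black bar at the median of the family. Most medians lie within 0.6 of 0, while single members such as Npy2r (4.98) and Adcyap1 (-3.30) stand far out.

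Among 20 neuropeptides, 4 were called lower and 2 higher in hippocampus, with a median of -0.60. Adcyap1, the peptide PACAP, which signals stress and raises cAMP, read -0.87 and -1.53 in hippocampus and 2.31 and 1.89 in prefrontal cortex, 9.83-fold (difference -3.30, SE 0.12, limma adjusted p = 0.0194). Vip, its closest relative, has been given above. Grp, gastrin-releasing peptide, was 2.64-fold higher in prefrontal cortex, a call lost in fits on 10 arrays without hippocampus WT (-1.14) or prefrontal cortex KO (-1.38). Cck, cholecystokinin, was among the brightest genes at 6.59 and 6.40 against 7.30 and 7.02, and not called. Nts, neurotensin, read -1.47 on the WT and -0.51 on the KO array of hippocampus against -3.60 and -4.10, 7.25-fold higher (difference 2.86, SE 0.42, limma adjusted p = 0.0441). Penk, proenkephalin, differed by -0.05, and Pdyn, prodynorphin of the mossy fibres, by -0.74.

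Of 20 peptide receptors, 1 was higher and 3 were lower in hippocampus, with a median of 0.14 that turned to -0.06 with median scaling and -0.02 with quantile normalization. Npy2r, the presynaptic Y2 receptor that dampens glutamate release in hippocampus, read -0.23 and -0.05 there and -4.86 and -5.39 in prefrontal cortex, where 1 of 2 arrays was above background (difference 4.98, SE 0.22, limma adjusted p = 0.0194). Its sister receptors Npy1r and Npy5r differed by 0.09 and 0.32. Cckbr, the brain receptor of cholecystokinin, read -0.84 and -1.01 in hippocampus and 2.09 and 2.33 in prefrontal cortex, 8.78-fold, with -0.77 at its other probe. Crhr1, the receptor of corticotropin-releasing hormone, read 0.71 and 0.72 against 2.81 and 2.63, 4.01-fold, with -0.13 at its other probe. Oprk1, the kappa opioid receptor, differed by -2.98 but also by genotype in prefrontal cortex, at -0.65 in WT and -2.62 in KO. It was above background on 1 of 2 hippocampus arrays, and its call was lost without the genotype term (limma adjusted p = 0.089) and in fits on 10 arrays without hippocampus WT (-3.14) or hippocampus KO (-2.82).

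Voltage-gated potassium channels had 6 of 23 called, all higher in prefrontal cortex, with a median of -0.52. Kcnf1, a subunit that forms no channel by itself and modifies others, read 0.62 and 0.56 in hippocampus and 2.61 and 2.61 in prefrontal cortex, 4.07-fold (difference -2.02, SE 0.10, limma adjusted p = 0.0202). Kcnh5, an ether-a-go-go channel, was 3.13-fold higher in prefrontal cortex at -1.5 and -1.23 against -3.03 and -2.98. The count was 9 with median scaling and 3 with normexp. Kcna4 and Kcnd2, which carry fast transient currents, differed by 0.91 and 0.68 and were not called.

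Of 28 axon guidance genes tested, 8 were called higher and 4 lower in hippocampus, beside 7.5% of named genes called in either direction, with a median of 0.56 that other scalings put between 0.31 and 0.36. Class A and B ephrin genes and their receptors were found on both sides. Epha6 and Epha7, Eph receptors, were 4.26-fold and 3.21-fold higher in hippocampus, with Epha6 at -0.63 and -0.87 against -2.69 and -2.98. Efnb3, an ephrin ligand, was 3.04-fold higher there, while Efnb2 was 3.86-fold higher in prefrontal cortex and Ephb6 3.57-fold. Semaphorins split too. Sema3a, a repellent of cortical axons, read -3.62 and -3.86 in hippocampus and -0.95 and -1.22 in prefrontal cortex, 6.29-fold (difference -2.65, SE 0.10, limma adjusted p = 0.0194). Nrp1, a receptor for Sema3a, ran the other way at -0.79 and -0.77 against -2.71 and -2.28, 3.28-fold higher in hippocampus. Sema3e and Sema5a were 3.88-fold and 5.02-fold higher in hippocampus, the latter 0.97 at its weaker probe. Efna5 gave -2.59 at its brightest probe and 0.29 at the other.

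In Wnt and BMP signalling, 5 of 27 members were called lower and 3 higher, with a median of -0.31. Normexp called 2 in each direction. Wnt10a, a Wnt ligand, read 0.44 and 0.30 in hippocampus and 2.63 and 2.65 in prefrontal cortex, 4.81-fold (difference -2.27, SE 0.11, limma adjusted p = 0.0197). Wnt4 was 3.03-fold higher in prefrontal cortex, and Wnt2 2.45-fold higher in hippocampus at 1.38 and 1.35 against -0.15 and 0.29. Bmp7, a bone morphogenetic protein, was 2.31-fold higher in prefrontal cortex and just under 2-fold with normexp (-0.99). Axin2, a feedback target of Wnt signals, differed by -0.05.

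Among genes of adult neurogenesis, which goes on in the dentate gyrus, 3 of 11 were higher and 3 lower in hippocampus, with a median of 0.52. Normexp called 0 higher and 3 lower. Igfbpl1, a protein of newborn neurons, was 2.89-fold higher. Its call was lost without hippocampus KO in the fit on 10 arrays (1.24) and under normexp (0.65). Dcx, doublecortin of migrating neurons, read -0.61 and -0.70 in hippocampus and 0.72 and 0.19 in prefrontal cortex, 2.17-fold higher in prefrontal cortex. Dcx lost its call without the genotype term (limma adjusted p = 0.058), with the mean of its probes (-0.67), and in fits on 10 arrays without hippocampus WT (-1.11), hippocampus KO (-1.12) or prefrontal cortex WT (-0.85). Hes5, a Notch target of neural stem cells and astrocytes, read 2.30 and 2.19 against 3.73 and 3.23, 2.35-fold higher in prefrontal cortex. Patterning factors had 2 higher and 3 lower among 19, with a median of 0.18 that median scaling turned to -0.02.

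Immediate early genes, which neuronal activity switches on within minutes, were called lower in hippocampus for 4 of 17 and higher for 2, with a median of -0.38. Quantile normalization called 1 in each direction. Egr1, a zinc finger factor of plasticity, read 3.77 and 3.61 against 4.84 and 4.67, 2.09-fold (difference -1.07, SE 0.10, limma adjusted p = 0.0277). It fell under 2-fold after quantile normalization (-0.91) and without hippocampus WT (-0.99) or prefrontal cortex KO (-0.99) in the fit on 10 arrays. Arc, a synaptic regulator, and Npas4 differed by -0.08 and -0.38, and Fos by -0.92 under the size limit. Jun was 2.54-fold higher in hippocampus at 2.48 and 2.72 against 1.22 and 1.28. Among steroid receptors and glucocorticoid-responsive genes, 1 of 13 was called higher and 2 lower, with a median of 0.05 that turned to -0.16, -0.06 and -0.06 with median scaling, quantile normalization and normexp. Nr3c1, the glucocorticoid receptor, differed by 0.05, Sgk1, a kinase it induces, by 0.68, and Cdkn1a, a cell cycle inhibitor, was 2.78-fold higher in prefrontal cortex.

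The IL-18 pathway and its relatives had 3 of 13 tested members higher in hippocampus and 1 lower, with a median of 0.34. Normexp called 2 higher and 0 lower. Il1r1, the signalling receptor of interleukin-1, read 0.41 on the WT and 0.20 on the KO array of hippocampus and -2.04 and -2.15 in prefrontal cortex, 5.28-fold higher (difference 2.40, SE 0.10, limma adjusted p = 0.0194). Il33, an IL-1 family cytokine of oligodendrocytes and astrocytes, read 2.62 and 2.93 against 1.29 and 1.65, 2.48-fold. Il1rap, the shared accessory chain, was 2.52-fold higher, and its difference was 0.77 over the mean of all its probes and 0.62 with normexp. The call of Il1rap was also lost without the genotype term (limma adjusted p = 0.071) and in fits on 10 arrays without hippocampus WT (1.32), hippocampus KO (1.34) or prefrontal cortex KO (0.98). Il1b was not well above background in hippocampus and at least 1.38-fold higher in prefrontal cortex, where it read -4.58 and -4.35. Its call was lost with normexp (-0.44) and in fits on 10 arrays without hippocampus WT (-1.23) or prefrontal cortex KO (-1.12). Il18bp, a decoy for IL-18, Myd88, the adaptor, and Traf6, downstream of it, differed by 0.34, 0.11 and 0.34. Il18r1 and Il18rap, which form the IL-18 receptor, were too dim in both regions to be tested. Casp1, the protease that activates IL-18, differed by -0.80 (limma adjusted p = 0.0398), under the size limit.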

How the data were processed

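Intensity values were deposited as Agilent Feature Extraction 9.5.3.1 scanner output, and the processed intensity was already background-subtracted and detrended, per the file headers. Total RNA (400 ng) was labelled with Cy3, per the labels' protocols. Log2 values of the deposited signal were taken here, minus each array's 75th percentile over 43379 gene spots. Control and outlier spots were left out and repeated spots averaged. Gene symbols came from matching accessions to RefSeq (GRCm38.p6): 22951 of 41174 probes (55.74%) matched. A gene is represented by its probe of highest mean over the 12 arrays. Probes entered if the file flagged them well above background on both arrays of at least 1 region, which kept 24984 of 33390 genes and transcripts; 4 more were left out for an outlier spot.

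Limma 3.58.1 in R 4.3.3 (lmFit, eBayes, Benjamini-Hochberg) was fitted to the 4 arrays with region and genotype as terms. Genotype is the pairing: WT is compared with WT and KO with KO, so the only residual degree of freedom is the difference of the region contrast between genotypes. Without that term, 876 genes were called higher and 607 lower. Few arrays limit the precision.

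Genes named were the 12 largest called differences each way among genes above background on all 4 arrays, the 6 largest bounds each way, up to 4 called members each way of every list, and defining markers. Members and lists were chosen with earlier results of these data known. Lists are described by counts and medians. Alternatives were other scalings, normexp with an offset of 50 (on the median signal, since these files hold no mean signal), filters, probe rules, arrays in the fit and each array left out. The authors' table of KO over WT ratios was not used here. Some genes are not reported here by name.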

Additional observations from a re-analysis of the deposited data

Results flagged for a closer look

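Tbx21, a T-box factor of mitral cells in the olfactory bulb, differed between hippocampus and prefrontal cortex in opposite directions in the 2 genotypes. It was lower in hippocampus in the WT pair (-0.91) and higher in the KO pair (0.61). The prefrontal cortex array read -1.55 in WT and -2.73 in KO, while hippocampus read -2.46 and -2.12. Cdhr1 and Doc2g, the other mitral cell genes given above, also read lower on the KO than on the WT array of prefrontal cortex. KO minus WT there was -1.18 for Tbx21, -1.09 for Cdhr1 and -1.44 for Doc2g. Of the 10 olfactory bulb markers tested, 3 read higher in KO there. Each value is 1 array against 1, and the difference between genotypes was not tested.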

How the results depend on the processing

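Of 166 called genes in the lists or named by size, 147 could be tested under every alternative, and 95 of these kept their call under all but the one with no filter on dim probes. With no filter, limma called 0 genes higher and 0 lower, and 9395 had an unadjusted p under 0.05; 33386 genes were tested instead of 24984. With an adjusted p alone and no size limit, 2032 were higher and 1327 lower. Normexp background correction called 437 higher and 485 lower, 419 and 453 of them among the main calls. Median scaling called 957 higher and 1208 lower. Without the genotype term, that is without the pairing, 876 were higher and 607 lower, against 1110 and 692 with it. Leaving out 1 array in the fit on 10 arrays of 5 regions gave 808 to 1159 higher and 589 to 757 lower; that fit takes the spread of the other regions for the lone array. The direction changed for Esr1, the estrogen receptor, when its probes were averaged: from -1.01 to 0.0202. Causes were not tested. Otof, Mbp, Esr1, Fzd7 and Efna5 are among the genes whose probes disagree in sign. Normexp with its offset of 50 narrows differences that involve dim readings. The main values were already background-subtracted and had no such offset, and the effect of background on their dim differences was not tested. There were 8402 genes and transcripts too dim in both regions to be tested.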
